A study of Mus musculus with 11 samples.

Results

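Lymphatic endothelial cells were taken from 2 single-cell libraries of whole mouse small-intestinal mesenchyme, where they were selected on a gate of UMI counts (a UMI is a molecular tag that counts 1 captured transcript). Kept cells had at least 500 genes and a mitochondrial share of UMIs below 10%, and a kept cell entered the gate when it held 2 or more UMIs of Mmrn1 and Prox1 together, 1 or more of Cdh5 and Pecam1 together, and 0 of Ptprc, the pan-leukocyte gene. The gate held 77 of 6226 kept cells in library 1 (1.24%, exact 95% binomial interval 0.977% to 1.54%) and 76 of 6040 in library 2 (1.26%, interval 0.993% to 1.57%), which is 153 of 12266 cells in all. It was compared with a blood endothelial gate of 142 and 152 cells, which held 2 or more UMIs of Cdh5 and Pecam1, 2 or more of Plvap and Flt1, and 0 of Prox1, Mmrn1 and Lyve1. A second comparison was with the 2403 and 2217 other cells that had no Ptprc UMI and were in neither gate.

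The study's title concerns mesenchymal populations and BMP signals in the intestine, and the endothelium was one of the populations collected. For bulk RNA sequencing, CD31+LYVE1+ cells (lymphatic endothelium) and CD31+LYVE1- cells (blood endothelium) were sorted from the small intestine of C57BL/6 mice, and GFPHi telocytes and GFPLo PDGFRAlo stromal cells from transgenic PDGFRAH2BEGFP mice, with 2 libraries per group. One further single-cell library held PDGFRAEGFP+ cells; 0 of its 3890 kept cells entered the lymphatic gate, which allows a share of up to 0.0771%. Per the labels, the muscle layer was stripped and the epithelium removed with EDTA before a collagenase II digest; strain is not labelled for the whole-mesenchyme libraries, age and sex are not labelled for any group, and the labels repeat the text on sorting of GFP cells for whole mesenchyme.

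Lymphatic endothelium lines the blind-ended capillaries and collecting vessels that return interstitial fluid, immune cells and, from the lacteals of intestinal villi, dietary fat to the blood. Its identity depends on the homeobox factor Prox1, and its growth on VEGF-C acting through the receptor Flt4 (VEGFR3) with the co-receptor Nrp2. Lyve1 is a hyaluronan receptor of lymphatic capillaries, Mmrn1 a secreted multimerin, and Ccl21a a chemokine that draws dendritic cells and T cells carrying Ccr7 into lymph vessels. Reln is a large secreted glycoprotein, and Fgl2 a fibrinogen-like protein with roles in coagulation and immune regulation.

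The promoters of 4 genes that define these cells are shown because the results turn on their transcripts. Each is the 250 bases before the annotated start in RefSeq (GRCm38.p6), printed 5′ to 3′ on the strand of the gene. Capitals mark matches on either strand to 6 letter patterns: AGGAAG for ETS factors, AGATAA for the family of Gata2, ACAATG for SOX factors, TAAACA for FOX factors, AGGTCA for a nuclear receptor half-site and TGGAAA for NFAT.
Ccl21a (chr4:42773992-42774241, minus strand): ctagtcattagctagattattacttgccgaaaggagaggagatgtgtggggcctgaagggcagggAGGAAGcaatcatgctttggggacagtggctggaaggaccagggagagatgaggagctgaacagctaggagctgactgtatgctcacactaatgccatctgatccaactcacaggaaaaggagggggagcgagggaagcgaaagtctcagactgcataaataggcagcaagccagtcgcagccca
Mmrn1 (chr6:60944067-60944316, plus strand): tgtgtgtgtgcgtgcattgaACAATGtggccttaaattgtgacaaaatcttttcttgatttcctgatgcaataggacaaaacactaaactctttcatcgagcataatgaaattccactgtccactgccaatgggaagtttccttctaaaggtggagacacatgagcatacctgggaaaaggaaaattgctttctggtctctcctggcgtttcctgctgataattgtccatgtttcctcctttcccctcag
Reln (chr5:22344706-22344955, minus strand): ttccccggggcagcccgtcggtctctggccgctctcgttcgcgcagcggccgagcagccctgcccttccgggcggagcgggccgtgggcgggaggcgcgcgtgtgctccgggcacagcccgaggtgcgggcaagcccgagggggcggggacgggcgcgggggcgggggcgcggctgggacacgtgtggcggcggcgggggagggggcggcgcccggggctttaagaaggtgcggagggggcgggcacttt
Fgl2 (chr5:21372423-21372672, plus strand): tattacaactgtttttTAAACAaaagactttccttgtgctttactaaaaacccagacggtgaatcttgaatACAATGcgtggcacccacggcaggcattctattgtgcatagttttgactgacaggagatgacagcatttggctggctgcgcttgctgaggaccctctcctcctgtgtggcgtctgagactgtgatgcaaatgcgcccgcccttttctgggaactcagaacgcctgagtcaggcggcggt
The Ccl21a promoter held the ETS letters from base -185 to -180, the Mmrn1 promoter the SOX letters from -230 to -225, and the Fgl2 promoter the FOX letters from -234 to -229 and the SOX letters from -179 to -174, counting back from the start site. None of the 6 patterns was found in the Reln window, which was 80.0% G and C. Among all 32851 RefSeq promoters of the same length, 29.5% held the ETS letters, 9.99% those of Gata2, 10.7% SOX, 12% FOX, 14.0% the half-site and 18.6% NFAT, so a match is common and describes the letters only.

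The gate genes showed how far the members stood from the threshold. Of the 153 cells, 146 held 10 or more Mmrn1 and Prox1 UMIs (median 37, highest 137), and 148 held a Lyve1 UMI, a gene that was not used to choose them (it served to keep cells out of the blood gate). Just outside the threshold, 19 and 10 cells with 1 such UMI met the other 2 conditions; they held no Lyve1 and no Reln UMI, and 242 and 149 UMIs of Plvap, the diaphragm protein of fenestrated blood vessels. Their single UMI was of Prox1 in 15 and 8 cells. Just inside it, the 2 cells with a sum of 2 also carried the blood pattern. In all, 4 gate cells (1 in library 1 and 3 in library 2) had 26 to 87 UMIs of Plvap and Flt1, 2 to 5 of Prox1, and none of Mmrn1, Lyve1, Ccl21a or Reln.

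These cells are called mixed below because they met the lymphatic gate and also carried the blood pattern. The name makes no statement on a mixed origin, which was not tested. The deepest had 33217 UMIs, the most of any gate cell, and the doublet scores of the 4 were 0.0328 to 0.0943. These 4 cells supplied all 416 UMIs of Selp (P-selectin), all 71 of Madcam1, all 26 of Ackr1 and all 13 of Sox17 counted in the gate, and 141 of 145 of Plvap. They were kept, since the rule admits them; results that rest on them are given with and without them, a choice made after seeing the data. In the other 149 cells, Mmrn1, Fgl2 and Flt4 had a UMI in 149, Lyve1 and Reln in 148, Ccl21a in 146 and Prox1 in 140. Per 10000 UMIs of a cell, the median was 60.8 for Mmrn1, 54.0 for Ccl21a, 34.3 for Lyve1, 20.5 for Fgl2, 18.2 for Flt4, 15.9 for Reln and 8.10 for Prox1. Mmrn1 and Prox1 were part of the rule, and the 4 cells left out had no UMI of Mmrn1, Lyve1 or Reln, so these counts describe the 149 cells and support nothing. Over all 153 cells, Lyve1, which the rule did not use, had a UMI in 148. Of these 7 genes, Prox1 and Ccl21a varied most among cells, with coefficients of variation of 0.719 and 0.694, and Flt4 least with 0.400; part of such spread is counting error.

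**Figure D1:**
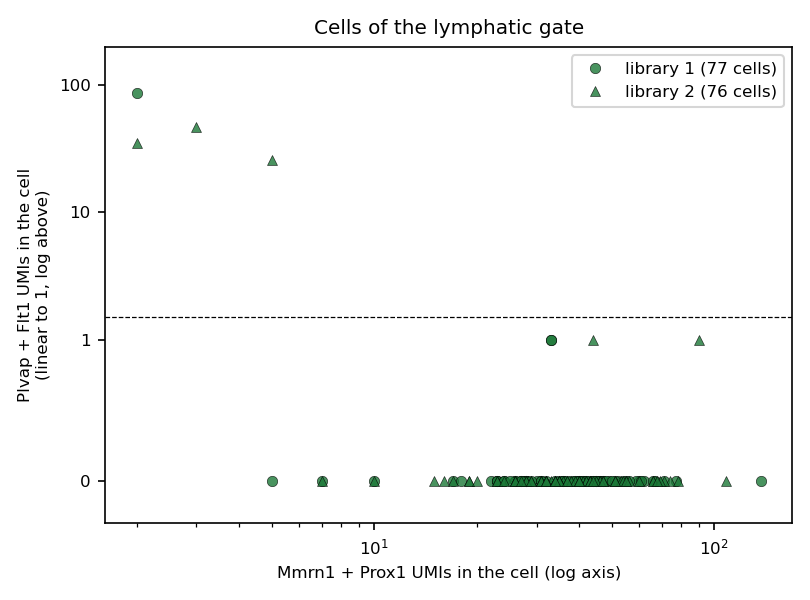
Each point is 1 cell of the lymphatic gate, placed by its summed Mmrn1 and Prox1 UMIs (x, log axis) and its summed Plvap and Flt1 UMIs (y, linear to 1 and log above). The 4 cells above the dashed line hold 26 to 87 Plvap and Flt1 UMIs, and the other 149 hold 0 or 1.

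A further 14 and 10 cells met the rule except for a Ptprc UMI, and 4 and 4 except for a Cdh5 or Pecam1 UMI. The cells with Ptprc held Lyve1 UMIs in 14 of 14 and 10 of 10, Ccl21a likewise, and 128 and 89 Reln UMIs, so these markers were also present in cells that the rule left out. Gate cells had a median of 4956 UMIs in library 1 and 5425 in library 2, against 4846 and 4878 in the blood gate and 6909 and 6899 in the other cells. Summed, they gave 462073 and 456193 UMIs, and levels below are CPM, a gene's UMIs scaled to the total of the summed cells, given for library 1 and then library 2. The 2 whole-mesenchyme libraries shared 7 cell barcodes among kept cells. The labels do not say that the libraries come from separate animals, and each p-value therefore reflects only the spread between 2 libraries, which may be technical. Within the lymphatic gate, 470 of 6422 genes with 20 or more UMIs (7.32%) had an exact binomial p under 0.05 between the libraries.

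Outside the 8 gate genes, 1173 of 9271 genes tested (12.7%) were called higher in the lymphatic than in the blood gate and 1366 (14.7%) lower (edgeR quasi-likelihood test on summed counts with library as a block, Benjamini-Hochberg adjusted p under 0.05, as for every call and adjusted p below). The median log2 fold change over all tested genes was 0.0014. The CPM are scaled to UMI totals and the fold changes by TMM, which put the latter about 0.15 below the log2 ratio of the CPM. Cells were chosen by 8 genes measured in the same cells, so genes that go with those 8 had to differ; the calls describe these 2 classes and are not independent support for the label.

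The list of lymphatic identity genes had 19 members, of which 3 (Prox1, Mmrn1 and Lyve1) were gate genes left out of the fit and 1 (Stab2) was below the filter on low counts. Of the 15 tested, 12 were higher in the lymphatic gate, 1 was lower and 2 did not pass, with a median log2 fold change of 4.62. Ccl21a (chr4:42772860-42773993, minus strand, GRCm38, GENCODE M21) had 5798 and 5688 CPM in the lymphatic gate and 1.19 and 2.18 in the blood gate, which held 3 of its UMIs in all. Its ratio was 3364 (95% 1150.4 to 16317), an exact interval that covers counting error only. Ccl21a has near-identical gene copies, so reads of the copies may have been counted with it; Ccl21c had 2 UMIs in the gate and Ccl21b 0.

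Reln (chr5:21884454-22344702, minus strand) had 1472 and 1528 CPM and no UMI in either blood sum, so it was at least 878-fold higher when 3 UMIs are put in the blood gate as a whole (adjusted p = 3.7e-09); every "at least" below uses the same floor. Fgl2 (chr5:21372642-21378374, plus strand) stood at 2175 and 2192 against 47.7 and 58.8 CPM (log2 fold change 5.21 ± 0.13, adjusted p = 3.2e-09). The VEGF-C receptor Flt4 (chr11:49609263-49652739, plus strand) stood at 1608 and 1646 against 56.1 and 63.1 CPM (log2 fold change 4.62 ± 0.13, adjusted p = 3.7e-09). For these genes both lymphatic sums lay far above both blood sums, and the 2 libraries gave like levels.

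The other members were transcription factors, scavenger receptors and surface proteins. Tbx1, a T-box factor, had 242 and 237 CPM and 0 in the blood gate, at least 140.3-fold higher (adjusted p = 6.7e-07). Nr2f2 (COUP-TFII), a nuclear receptor that works with Prox1, had 621 and 701 against 65.6 and 134 CPM (log2 fold change 2.59 ± 0.20, adjusted p = 3.0e-06). Both factors were higher in each lymphatic sum than in either blood sum. The endocytic receptor Stab1 had 816 and 765 against 44.1 and 53.3 CPM (log2 fold change 3.87 ± 0.15, adjusted p = 2.6e-08). Mrc1, the mannose receptor, had 199 and 228 CPM against 1 UMI in the blood gate, a ratio of 375 (95% 66.5 to 14888). Ackr2, a decoy receptor that takes up inflammatory chemokines, had 108 and 114 CPM and 0 in the blood gate, at least 65.1-fold higher. Of these uptake receptors, Mrc1 and Ackr2 were near 0 in the blood gate and Stab1 was not. Pdpn (podoplanin), a mucin-type membrane protein, had 141 and 199 against 8.35 and 5.44 CPM (log2 fold change 4.49 ± 0.32, adjusted p = 2.0e-06). The surface protein Thy1 had 335 and 414 against 8.35 and 10.9 CPM (log2 fold change 5.14 ± 0.21, adjusted p = 5.2e-08), and 5.72 and 3.83 in the blood gate without its 17 and 13 cells that held a Ptprc UMI.

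The member that went the other way was Sox18, a factor of early lymphatic specification, at 115 and 153 against 179 and 205 CPM (log2 fold change -0.66 ± 0.16, adjusted p = 0.0088). The collagen-binding integrin Itga1 had 366 and 397 against 440.1 and 432 CPM (log2 fold change -0.34 ± 0.12, adjusted p = 0.052); it passed, as lower, in 5 alternatives. Ackr4, a scavenging receptor of Ccl21 that was under 20 CPM and is given after its values were seen, had 0 and 17.5 against 0 and 9.80 CPM (log2 fold change 0.62 ± 1.19, adjusted p = 0.76).

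**Figure D2:**
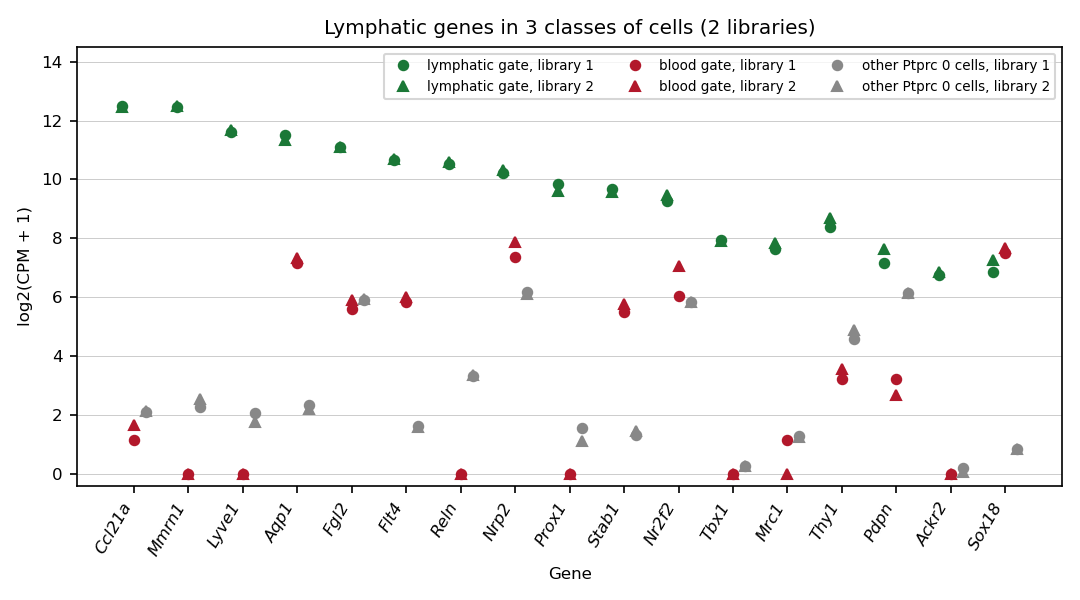
Levels of 17 genes (x) as log2(CPM + 1) (y) in the lymphatic gate, the blood gate and other cells without Ptprc, with 1 point for each library. Ccl21a, Mmrn1 and Lyve1 have the highest lymphatic levels in both libraries, and Sox18 is the gene plotted whose blood points are the higher ones; Mmrn1, Prox1 and Lyve1 were used to choose the classes.

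By the size of the change, the 12 largest rises among genes with 50 CPM or more were Reln, Ccl21a, Tbx1, Wnt2, Ackr2, Sema3a, Gpm6a, Apba2, Ube2ql1, Tnfaip8l3, Nrxn2 and Edaradd. All but Ccl21a had 0 UMIs in both blood sums. Gpm6a, a membrane glycoprotein best known from neurons, had 182 and 213 CPM, at least 115-fold higher. Apba2, an adaptor protein of neurons, had 141 and 158 CPM, at least 87.4-fold higher. Nrxn2, a neurexin, had 71.4 and 57.0 CPM, at least 37.6-fold higher. These 3 genes are best known from the nervous system. Edaradd, the adaptor of the ectodysplasin receptor, had 62.8 and 57.0 CPM, at least 35.1-fold higher, and the other 2, Ube2ql1 and Tnfaip8l3, at least 52.9- and 44.0-fold.

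The 12 largest falls were Sema3g, Ptprr, Cytl1, Mal, Tspan8, Esm1, Ssu2, Enpp6, Kcne3, Coro2a, Lyz2 and Edn1, of which the first 10 had 0 UMIs in both lymphatic sums. Sema3g, a semaphorin of arterial endothelium, had 284 and 286 CPM in the blood gate and was at least 87.3-fold lower in the lymphatic gate. Ptprr, a tyrosine phosphatase, had 168 and 217 CPM in the blood gate and was at least 59.2-fold lower. Esm1 (endocan), a proteoglycan of sprouting blood vessels, had 148 and 82.7 CPM and was at least 34.8-fold lower. The remaining 7 of the 10 were at least 15.7- (Coro2a) to 41.6-fold (Cytl1) lower. Lyz2, a lysozyme of myeloid cells, rested on few cells: the blood gate had 562 and 12 CPM, and 4.29 and 6.38 without its cells that held a Ptprc UMI.

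In addition, 857 genes were called higher in the lymphatic gate than in both other classes. The 10 with the highest summed level were Tmsb4x, Ccl21a, Fth1, Timp3, Cavin2, H2-D1, H2-K1, Aqp1, B2m and Nfkbia; these UMI levels are not scaled by gene length. Cavin2, a coat protein of caveolae, had 3398 and 3588 CPM against 723 and 783 in the blood gate (log2 fold change 2.07 ± 0.10, adjusted p = 1.6e-07) and 51.2 and 44.0 in the other cells. Timp3, a matrix-bound inhibitor of metalloproteinases, had 3813 and 3867 CPM against 1821 and 1857 in the blood gate (log2 fold change 0.92 ± 0.077, adjusted p = 6.6e-06) and 249 and 250.2 in the other cells. Aqp1, a water channel, had 2906 and 2576 CPM against 143 and 159 in the blood gate (log2 fold change 4.03 ± 0.12, adjusted p = 3.7e-09) and 4.03 and 3.56 in the other cells. Aqp1 had the widest gap to both classes of these 3. The MHC class I genes H2-D1 and H2-K1 and their partner B2m differed less from the blood gate, with log2 fold changes of 0.55 ± 0.074, 0.64 ± 0.076 and 0.48 ± 0.08; class I genes are alike in sequence, so reads may be split among them.

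VEGF receptors and co-receptors differed by member. Of the 20 genes of the VEGF and angiopoietin list, 15 were tested, of which 7 were higher, 4 lower and 4 did not pass (median log2 fold change 0.39). Besides Flt4, the co-receptor of VEGF-C, Nrp2, had 1203 and 1289 against 166 and 232 CPM (log2 fold change 2.50 ± 0.14, adjusted p = 4.3e-07). Nrp1, the co-receptor of VEGF-A, went the other way at 47.6 and 35.1 against 736 and 632 CPM (log2 fold change -4.19 ± 0.18, adjusted p = 6.6e-08); without the 4 mixed cells it was 37.3 and 11.6. So the 2 neuropilins divided between the gates. Kdr (VEGFR2) was higher in the lymphatic gate, at 1082 and 1024 against 596 and 573 CPM (log2 fold change 0.70 ± 0.11, adjusted p = 5.7e-04). Flt1 (VEGFR1) chose the blood cells and is not tested.

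Among the ligands, Vegfc itself was low in the lymphatic gate at 10.8 and 2.19 against 75.1 and 95.8 CPM (log2 fold change -3.86 ± 0.43, adjusted p = 5.8e-05), and it was 2.33 and 2.31 without the 4 mixed cells. Pgf, placental growth factor, a ligand of Flt1, had 123 and 136 against 8.35 and 4.35 CPM (log2 fold change 4.22 ± 0.32, adjusted p = 3.0e-06). Angpt2, a ligand of the receptor Tek, had 126 and 98.6 against 10.7 and 21.8 CPM (log2 fold change 2.62 ± 0.33, adjusted p = 1.4e-04). Pgf and Angpt2 were higher in each lymphatic sum than in either blood sum. The receptor Tek (Tie2) was lower at 108 and 125 against 188 and 226 CPM (log2 fold change -0.98 ± 0.18, adjusted p = 0.0022). Ptprb, the phosphatase that acts on it, was lower at 426 and 412 against 1264 and 1415 CPM (log2 fold change -1.82 ± 0.13, adjusted p = 1.8e-06). Tie1, a related receptor, was higher by 0.39 ± 0.12 on the log2 scale (adjusted p = 0.037), a call lost in 4 alternatives, among them the blood gate without Ptprc (adjusted p = 0.10) and DESeq2 (adjusted p = 0.19).

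**Figure D3:**
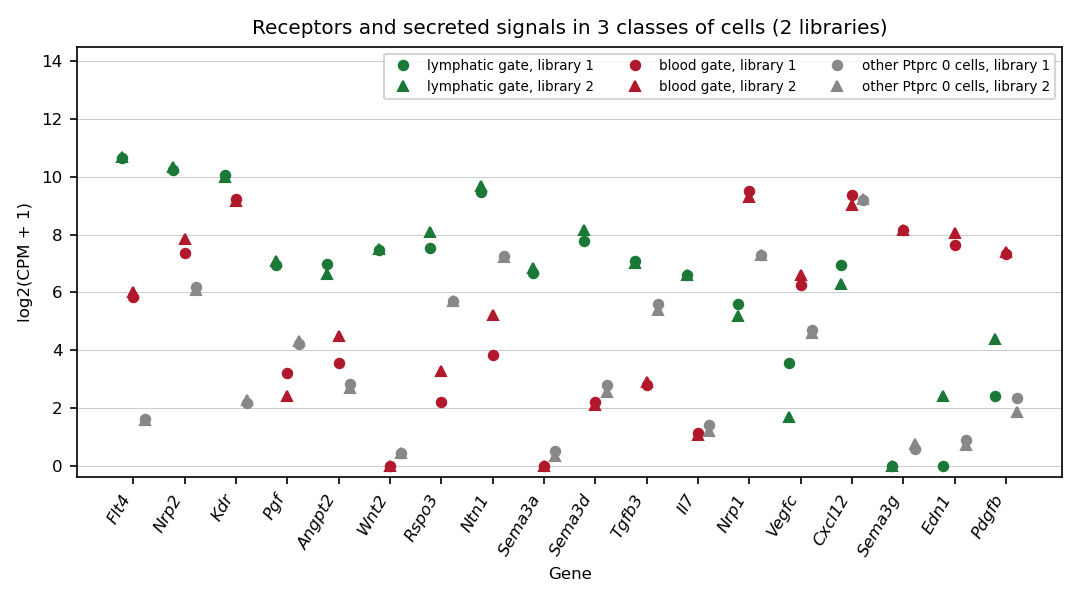
Levels of 18 receptor and signal genes (x) as log2(CPM + 1) (y) in the lymphatic gate, the blood gate and other cells without Ptprc, with 1 point for each library. From Flt4 to Il7 the lymphatic points lie above the blood points, and from Nrp1 to Pdgfb below them.

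Secreted niche and guidance factors were split. Of the 44 listed, 35 were tested, of which 12 were higher in the lymphatic gate, 11 lower and 12 did not pass (median log2 fold change -0.58, or -0.49 with genes at 0 UMIs set to their bound). Wnt2, a Wnt ligand, had 175 and 179.7 CPM and 0 in the blood gate, at least 104-fold higher (adjusted p = 1.6e-06). Rspo3, an R-spondin that raises Wnt signals in crypt stem cells, had 186 and 274 against 3.58 and 8.71 CPM (log2 fold change 5.05 ± 0.31, adjusted p = 8.3e-07). Wnt9b, another Wnt ligand, had 19.5 and 35.1 CPM and 0 in the blood gate, at least 15.9-fold higher. These 3 Wnt pathway genes were higher in the lymphatic sums of both libraries. In the other Ptprc 0 cells, Wnt2 had 0.344 and 0.372 CPM and Rspo3 50.7 and 51.6.

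The guidance cues that were higher included a netrin and semaphorins. Sema3f (log2 fold change 0.066 ± 0.16, adjusted p = 0.82) and Slit3 (log2 fold change -0.98 ± 0.39, adjusted p = 0.089) did not pass. Ntn1 (netrin 1) had 709.8 and 818 against 13.1 and 35.9 CPM (log2 fold change 4.80 ± 0.23, adjusted p = 1.4e-07). Sema3d, a class 3 semaphorin, had 221 and 287 against 3.58 and 3.27 CPM (log2 fold change 6.06 ± 0.34, adjusted p = 4.6e-07). Sema3a, of the same class, had 102 and 114 CPM against 0 in the blood gate, at least 63.1-fold higher. Class 3 semaphorins did not go one way, since Sema3g was at 0 in the lymphatic gate. Sema6a, a membrane-bound semaphorin, had 524 and 493 against 138 and 149 CPM (log2 fold change 1.68 ± 0.12, adjusted p = 2.5e-06).

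All 3 TGF-beta genes were higher. Tgfb3 had 136 and 129 against 5.96 and 6.53 CPM (log2 fold change 4.25 ± 0.29, adjusted p = 1.6e-06). Tgfb2 had 245 and 309 against 38.2 and 43.5 CPM (log2 fold change 2.61 ± 0.18, adjusted p = 2.0e-06). Tgfb1 had 331 and 370.5 against 187 and 186 CPM (log2 fold change 0.76 ± 0.13, adjusted p = 8.7e-04), a call lost when each cell was thinned to 1500 UMIs (adjusted p = 0.065). Among the 11 lower genes of this list, Edn1 (endothelin 1, a vasoconstrictor) had 0 and 4.38 against 200.4 and 268 CPM, a ratio of 0.00924 (95% 0.00112 to 0.0336). Pdgfb, which recruits pericytes to blood vessels, had 4.33 and 19.7 against 159 and 168 CPM (log2 fold change -3.91 ± 0.39, adjusted p = 2.5e-05). The nitric oxide synthase Nos3 had 17.3 and 24.1 against 109 and 112 CPM (log2 fold change -2.56 ± 0.32, adjusted p = 1.2e-04). The binding proteins of insulin-like growth factor went both ways. Igfbp5 had 344 and 642 against 75.1 and 86.0 CPM (log2 fold change 2.45 ± 0.21, adjusted p = 7.7e-06). Igfbp7 had 493 and 605 against 4329 and 3723 CPM (log2 fold change -3.02 ± 0.12, adjusted p = 3.1e-08), and 301 and 400.1 in the lymphatic gate without the 4 mixed cells.

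Leukocyte trafficking genes had members in both directions. Of the 30 listed, 27 were tested, of which 8 were higher (Ccl21a, Ccl2, Ackr2, Ackr3, Icam1, Stab1, Mrc1 and Il7), 13 lower and 6 did not pass (median log2 fold change -1.0, and -0.44 against the blood gate without Ptprc). Il7, a survival cytokine of lymphocytes, had 95.2 and 96.5 CPM against 2 UMIs in the blood gate, a ratio of 84.2 (95% 22.6 to 706). Ccl2, a monocyte chemokine, had 149 and 121 against 33.4 and 5.44 CPM (log2 fold change 2.69 ± 0.40, adjusted p = 4.2e-04). Icam1, an adhesion molecule for integrins of leukocytes, had 2082 and 2111 against 952 and 1326 CPM (log2 fold change 0.75 ± 0.12, adjusted p = 6.3e-04). Ackr3 and its ligand moved apart. Ackr3, a scavenger of Cxcl12 and adrenomedullin, had 396 and 416 against 137 and 105 CPM (log2 fold change 1.61 ± 0.15, adjusted p = 1.4e-05). Cxcl12 itself had 123 and 76.7 against 658 and 520.4 CPM (log2 fold change -2.71 ± 0.18, adjusted p = 1.3e-06).

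Among the 13 lower genes of this list, Vcam1, which binds integrins of lymphocytes, had 23.8 and 11.0 against 118 and 219.9 CPM (log2 fold change -3.42 ± 0.42, adjusted p = 1.0e-04), and 7.00 and 6.94 without the 4 mixed cells. Cxcl10, an interferon-induced chemokine, had 43.3 and 109.6 against 507 and 409 CPM (log2 fold change -2.73 ± 0.27, adjusted p = 2.2e-05), and 44.3 and 18.5 without them. The lymphatic levels of Selp, Madcam1, Sele and Ackr1 rested wholly on those 4 cells. Selp had 584 and 320.0 against 1386 and 2059.7 CPM (log2 fold change -2.14 ± 0.29, adjusted p = 2.3e-04). Madcam1, the gut homing receptor of lymphocytes, had 106 and 48.2 against 159 and 273 CPM (log2 fold change -1.62 ± 0.33, adjusted p = 0.0033). Sele (E-selectin) had 23.8 and 4.38 against 103 and 186 CPM (log2 fold change -3.49 ± 0.54, adjusted p = 5.4e-04). The chemokine receptor Ackr1, a marker of venules, had 56.3 and 0 against 148 and 205 CPM (log2 fold change -2.79 ± 0.53, adjusted p = 0.0021), a call lost with DESeq2 (adjusted p = 0.23). Without the 4 cells, each of these 4 genes had 0 UMIs in both lymphatic sums.

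Genes shared by all endothelium had members in each direction. Of the 20 listed, 18 were tested (Cdh5 and Pecam1 were gate genes). Of these, 3 were higher in the lymphatic gate, 7 lower and 8 did not pass (median log2 fold change -0.19). Over all genes tested against the blood gate, 12.7% were higher and 14.7% lower, so the 3 higher members were near the share of all genes. Egfl7, a secreted vascular protein, had 742 and 767 against 717 and 776 CPM (log2 fold change -0.13 ± 0.12, adjusted p = 0.50). Mmrn2, a multimerin of the endothelial matrix, had 781 and 826 against 650.0 and 663 CPM (log2 fold change 0.15 ± 0.11, adjusted p = 0.39). The tight-junction gene Cldn5 was higher, at 998 and 923 against 309 and 544 CPM (log2 fold change 1.04 ± 0.20, adjusted p = 0.0024). The 2 blood sums of Cldn5 differed more from each other than its 2 lymphatic sums did. Sox17, a factor of arterial identity, had 4.33 and 24.1 against 289.8 and 310.3 CPM (log2 fold change -4.55 ± 0.32, adjusted p = 2.0e-06), and 0 without the 4 mixed cells.

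Of 19 junction genes, 14 were tested, of which 2 were higher (Cldn5 and Cldn11), 5 lower and 7 did not pass (median log2 fold change -0.24). The share of higher members was near the 12.7% of all genes tested, of which 14.7% were lower. The adhesion protein Esam had 34.6 and 57.0 against 751 and 730.5 CPM (log2 fold change -4.16 ± 0.19, adjusted p = 8.8e-08), and 11.7 and 23.1 without the 4 mixed cells. Jam2, a junctional adhesion molecule, had 15.1 and 6.58 against 141 and 209 CPM (log2 fold change -4.15 ± 0.37, adjusted p = 9.6e-06), and 0 and 2.31 without them. Both were high in each blood sum and low in each lymphatic sum. The arterial connexin Gja5 had 0 UMIs in the lymphatic gate and 39.4 and 51.2 CPM in the blood gate, at least 13.9-fold lower. Gja4, a second connexin of arteries, had 30.3 and 50.4 against 166 and 153 CPM (log2 fold change -2.13 ± 0.23, adjusted p = 4.8e-05).

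Of the 20 genes in the blood endothelial list, 17 were tested, of which 12 were lower, 3 higher and 2 did not pass (median log2 fold change -2.79). Without the 4 mixed cells the median was -5.90, or -5.31 with the 6 genes then at 0 UMIs set to their bound. The 3 higher ones, Kdr, Aqp1 and Gpihbp1, are known from blood capillaries. Vwf, the carrier of a clotting factor, had 8.66 and 4.38 against 295 and 339.7 CPM (log2 fold change -5.74 ± 0.28, adjusted p = 1.7e-07), and all its 6 gate UMIs lay in the 4 mixed cells. Ly6c1, a surface protein of capillaries and arteries, had 17.3 and 57.0 against 1488 and 1543 CPM (log2 fold change -5.5 ± 0.25, adjusted p = 9.8e-08), and 2.33 and 0 without the 4 cells. Its relative Ly6a had 17.3 and 37.3 against 988 and 1042 CPM (log2 fold change -5.37 ± 0.20, adjusted p = 2.6e-08), and 4.66 and 20.8 without them. These 3 genes were therefore lower still in the unmixed lymphatic cells. The sialomucin Emcn had 558 and 561 against 441 and 382 CPM (log2 fold change 0.30 ± 0.12, adjusted p = 0.081).

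All 16 Notch genes listed were tested, of which 4 were higher, 7 lower and 5 did not pass (median log2 fold change -0.85). The receptors differed. Notch1 had 333 and 355 against 302 and 300.5 CPM (log2 fold change 0.047 ± 0.12, adjusted p = 0.82). Notch4, a receptor best known from blood endothelium, had 2.16 and 11.0 against 113 and 108 CPM (log2 fold change -4.22 ± 0.44, adjusted p = 3.4e-05). Notch2 had 32.5 and 28.5 CPM against 3 UMIs in the blood gate, a ratio of 17.9 (95% 5.52 to 91.8). Ligands differed as well. Dll4 had 245 and 208 against 234 and 231 CPM (log2 fold change -0.18 ± 0.14, adjusted p = 0.38). Jag1 had 17.3 and 35.1 against 146 and 150.2 CPM (log2 fold change -2.65 ± 0.27, adjusted p = 2.8e-05). Jag2 had 4.33 and 15.3 against 81.1 and 99.1 CPM (log2 fold change -3.35 ± 0.40, adjusted p = 8.2e-05). The jagged ligands were lower in both lymphatic sums, while a difference in Dll4 was not detected. The target gene Hes1 was higher at 1770.3 and 1734 against 832 and 847 CPM (log2 fold change 0.91 ± 0.11, adjusted p = 7.0e-05). In the bulk libraries Hes1 went the other way, with a log2 difference of mean CPM + 5 of -2.81, and did not pass. Lfng, a glycosyltransferase that modifies Notch, had 43.3 and 39.5 against 9.54 and 5.44 CPM (log2 fold change 2.33 ± 0.45, adjusted p = 0.0025).

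BMP and Smad genes, the pathway named in the study's title, had 30 members, of which 22 were tested. In the lymphatic gate 3 were higher, 11 lower and 8 did not pass (median log2 fold change -0.83). Among all genes tested, 12.7% were higher, which is near the share of this list, and 14.7% were lower. Smad1, a signal transducer of BMP receptors, had 502 and 406 against 136 and 131 CPM (log2 fold change 1.62 ± 0.13, adjusted p = 5.7e-06). Twsg1, a modulator that binds BMP ligands, had 110.4 and 101 against 16.7 and 28.3 CPM (log2 fold change 2.07 ± 0.26, adjusted p = 1.2e-04). Smad4, the partner of both BMP and TGF-beta Smads, was the third higher member (log2 fold change 0.95 ± 0.20, adjusted p = 0.0037). The inhibitory Smads were lower. Smad6 had 0 UMIs in the lymphatic gate against 38.2 and 42.5 CPM, at least 12.4-fold lower. Smad7 had 47.6 and 59.2 against 221 and 226 CPM (log2 fold change -2.21 ± 0.18, adjusted p = 5.4e-06). Among the receptors, Acvr1 (log2 fold change 0.48 ± 0.42, adjusted p = 0.46) and Acvr2a (log2 fold change 0.49 ± 0.38, adjusted p = 0.40) did not pass. Acvrl1 (ALK1), a receptor of circulating BMPs, was lower at 69.3 and 74.5 against 354 and 341 CPM (log2 fold change -2.42 ± 0.15, adjusted p = 9.9e-07). Its co-receptor endoglin (Eng) had a log2 fold change of -0.92 ± 0.12 and Bmpr2 of -1.03 ± 0.14. The target gene Id1 stood at 419.8 and 499.8 against 722 and 957 CPM (log2 fold change -1.01 ± 0.13, adjusted p = 1.8e-04). Id3, a second target, had a log2 fold change of -1.08 ± 0.089.

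Of 21 lipid genes, 18 were tested, of which 4 were higher, 8 lower and 6 did not pass (median log2 fold change -0.76). The higher ones included Lpl (lipoprotein lipase), Gpihbp1, which carries it across endothelium, and the lipoprotein receptor Vldlr. Gpihbp1 had 409 and 384 against 47.7 and 10.9 CPM (log2 fold change 3.66 ± 0.31, adjusted p = 7.2e-06). Lpl had 173 and 173 against 17.9 and 16.3 CPM (log2 fold change 3.19 ± 0.21, adjusted p = 1.3e-06). Vldlr had 134 and 107 CPM against 3 UMIs in the blood gate, a ratio of 70.8 (95% 23.6 to 349). Among the 8 lower ones, the fatty acid transporter Cd36 stood at 90.9 and 39.5 against 394 and 389.7 CPM (log2 fold change -2.74 ± 0.22, adjusted p = 4.4e-06), and 35.0 and 41.6 without the 4 mixed cells. The fatty-acid binding protein Fabp4 stood at 556 and 712 against 2579 and 2565 CPM (log2 fold change -2.16 ± 0.14, adjusted p = 1.3e-06). The HDL receptor Scarb1 stood at 15.1 and 19.7 against 303 and 241 CPM (log2 fold change -4.11 ± 0.24, adjusted p = 5.7e-07), and 2.33 and 2.31 without the mixed cells.

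Of 15 valve and collecting-vessel genes, 14 were tested, of which 6 were higher, 5 lower and 3 did not pass (median log2 fold change 0.26). The 3 that did not pass were Foxc1, Foxc2 (16 UMIs in the gate) and Gja1. Itga9, the integrin that shapes valve leaflets, had 271 and 259 against 20.3 and 38.1 CPM (log2 fold change 3.01 ± 0.24, adjusted p = 4.3e-06). Celsr1, a planar polarity protein of valve cells, had 32.5 and 21.9 CPM against 3 UMIs in the blood gate, a ratio of 15.9 (95% 4.87 to 82.5). Foxc2 and Cldn11 were under 20 CPM and were chosen after their values were seen. Foxc2, a valve transcription factor, had a UMI in 15 of 153 gate cells, Cldn11 in 12 and Celsr1 in 21, against 3.06%, 0.340% and 1.02% of blood gate cells. A sum of 2 or more UMIs of these 3 genes occurred in 9 gate cells (4 and 5). Summed Lyve1 was 2987 and 4392 CPM in those 9 cells, against 3410 and 3389 in the other unmixed cells. The shear-responsive factor Klf2 was lower at 868 and 546 against 1988 and 2154 CPM (log2 fold change -1.71 ± 0.15, adjusted p = 1.1e-05); without the 4 mixed cells, which held 28.6% of its gate UMIs, it was 562 and 516 (log2 fold change -2.11). Gata2, a factor of valve development, was lower at 39.0 and 46.0 against 100.2 and 125 CPM (log2 fold change -1.56 ± 0.37, adjusted p = 0.0092).

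All 27 basement membrane and matrix genes were tested, of which 8 were higher, 14 lower and 5 did not pass (median log2 fold change -0.72). Among the 14 lower ones, Col4a1, a chain of the main basement membrane collagen, stood at 394 and 458 against 997 and 852 CPM (log2 fold change -1.26 ± 0.13, adjusted p = 2.6e-05). Hspg2 (perlecan) stood at 117 and 118 against 425 and 358 CPM (log2 fold change -1.88 ± 0.14, adjusted p = 3.5e-06). Col15a1, a collagen next to basement membranes, stood at 28.1 and 46.0 against 416 and 325 CPM (log2 fold change -3.46 ± 0.23, adjusted p = 1.2e-06), and 16.3 and 9.25 without the 4 mixed cells. Among the 8 higher ones, Lama4, a laminin chain of vessels, stood at 437 and 399 against 137 and 102 CPM (log2 fold change 1.66 ± 0.16, adjusted p = 1.5e-05). Col18a1, the source of endostatin, stood at 216 and 230.2 against 48.9 and 53.3 CPM (log2 fold change 1.98 ± 0.16, adjusted p = 5.6e-06). Emilin1, a glycoprotein of anchoring filaments, stood at 214 and 261 against 38.2 and 37.0 CPM (log2 fold change 2.51 ± 0.18, adjusted p = 2.0e-06). Timp2 was higher as Timp3 was, at 593 and 569.9 against 83.5 and 114 CPM (log2 fold change 2.41 ± 0.15, adjusted p = 7.4e-07).

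All 21 genes of the response to tissue digestion were tested, of which 4 were higher, 9 lower and 8 did not pass (median log2 fold change -0.19). Fosb, an immediate early gene, had 2047 and 2087 against 454 and 464 CPM (log2 fold change 2.02 ± 0.091, adjusted p = 8.8e-08). Dusp1, a phosphatase induced by stress, had 2322 and 2004 against 651 and 577 CPM (log2 fold change 1.67 ± 0.099, adjusted p = 5.9e-07). Socs3, an inhibitor of cytokine signals, had 478 and 495 against 1576 and 2035 CPM (log2 fold change -2.03 ± 0.12, adjusted p = 5.0e-07). So these genes did not move as a block, and their part in the other differences was not tested. Of 14 cell-cycle genes, 7 were tested, of which 0 were higher, 1 was lower (Stmn1) and 6 did not pass. Without the 4 mixed cells 3 were lower. The 1 lower gene of 7 was near the 14.7% of all genes tested that were lower, while 12.7% were higher.

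MHC class II genes, which present antigen to T cells, changed direction with the choice of blood cells. Of the 8 listed, 6 were tested, of which 0 were higher, 5 lower and 1 did not pass (median log2 fold change -1.79). The invariant chain Cd74 had 214 and 210.4 CPM in the lymphatic gate and 1292 and 431 in the blood gate (log2 fold change -2.06 ± 0.34, adjusted p = 9.2e-04). H2-Ab1, a beta chain, had 106 and 87.7 against 545 and 169 CPM (log2 fold change -1.95 ± 0.38, adjusted p = 0.0026). H2-Aa, its alpha chain, had 108 and 85.5 against 417 and 136 CPM (log2 fold change -1.60 ± 0.36, adjusted p = 0.0069). The blood gate was high in library 1 and nearer to the lymphatic gate in library 2. H2-Eb1 had 67.1 and 121 against 464 and 108 CPM (log2 fold change -1.64 ± 0.53, adjusted p = 0.039), with overlapping groups. Without predicted doublets the calls of H2-Aa, H2-Eb1 and Cd74 were lost (adjusted p = 0.069, 0.14 and 0.100).

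The blood gate, unlike the lymphatic one, was not restricted on Ptprc, and 17 and 13 of its cells held a Ptprc UMI. With those cells left out, a choice made after seeing the data, 5 of 5 tested class II genes were higher in the lymphatic gate (median log2 fold change 1.37). The blood gate then had 136 and 80.3 CPM of Cd74, 42.9 and 43.4 of H2-Ab1, 24.3 and 42.1 of H2-Aa and 25.7 and 15.3 of H2-Eb1. Macrophage and dendritic markers moved with the result. The 10 markers summed to 34.6 and 26.3 CPM in the lymphatic gate, where C1qb, C1qc and Adgre1 were at 0, against 718 and 80.6 in the blood gate. Class II transcripts were also present outside cells: in barcodes with 100 or fewer UMIs the 8 genes summed to 5723 and 5389 CPM, against 528 and 537 in the lymphatic gate. The part of free RNA in the lymphatic level was not tested.

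**Figure D4:**
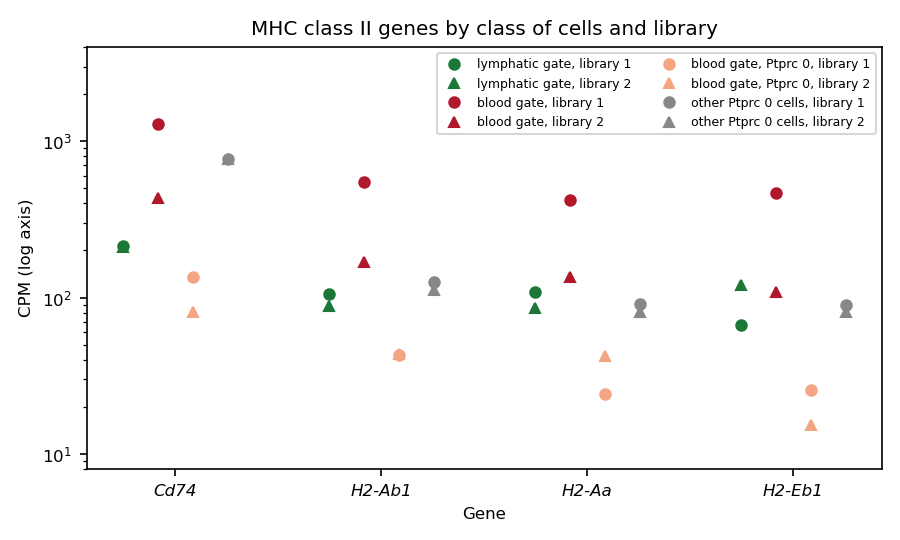
CPM (y, log axis) of 4 MHC class II genes (x) in the lymphatic gate, the blood gate, the blood gate without cells that held Ptprc, and other cells without Ptprc, with 1 point for each library. The lymphatic points lie below the full blood gate, except for H2-Eb1 in library 2, and above the blood gate without Ptprc.

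Against the other Ptprc 0 cells, a mixture of types, 2099 of 9271 genes (22.6%) were called higher in the lymphatic gate and 2116 (22.8%) lower. In this comparison the fold changes lie about 0.49 below the log2 ratios of the printed CPM. Of 15 lymphatic identity genes tested, 14 were higher and Ackr4 was lower, at 0 and 17.5 against 66.9 and 62.4 CPM (log2 fold change -3.38 ± 0.60, adjusted p = 7.6e-04). Reln stood at 1472 and 1528 against 8.94 and 9.18 CPM (log2 fold change 6.88 ± 0.13, adjusted p = 1.8e-10). Stab1 stood at 816 and 765 against 1.52 and 1.75 CPM (log2 fold change 8.42 ± 0.15, adjusted p = 2.9e-11). Sox18, lower than in the blood gate, was among the 14 that were higher here. Of 18 pan-endothelial genes, 17 were higher and 0 lower, or 16 and 1 without the 4 mixed cells.

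The secreted signals varied in this comparison. Rspo3 stood at 186 and 274 against 50.7 and 51.6 CPM (log2 fold change 1.67 ± 0.16, adjusted p = 7.5e-06). Ntn1 stood at 709.8 and 818 against 151 and 150.3 CPM (log2 fold change 1.85 ± 0.15, adjusted p = 2.1e-06). Tgfb3 stood at 136 and 129 against 47.3 and 40.8 CPM (log2 fold change 1.11 ± 0.15, adjusted p = 1.3e-04). For these 3 the gap to the other cells was smaller than that to the blood gate. For Lpl and Ccl2 the CPM and the fitted difference, which TMM shifts, had opposite signs. Lpl had 173 and 173 against 135 and 134 CPM (log2 fold change -0.12 ± 0.12, adjusted p = 0.45). Ccl2 had 149 and 121 against 114 and 105 CPM (log2 fold change -0.19 ± 0.24, adjusted p = 0.56). Cxcl12 was lower, at 123 and 76.7 against 589.5 and 602 CPM (log2 fold change -3.08 ± 0.17, adjusted p = 9.9e-08). Il7 was higher, at 95.2 and 96.5 against 1.67 and 1.33 CPM (log2 fold change 5.50 ± 0.28, adjusted p = 4.0e-08).

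Markers of other cell types were present in the gate at the levels that follow. The 9 fibroblast genes summed to 2201 and 1846 CPM in the lymphatic gate, 1669.8 and 2163 in the blood gate and 19921 and 18972 in the other cells, and 0 of 9 were called between the 2 gates. In the lymphatic gate, 94.5% and 92.5% of these UMIs lay in 4 and 3 cells with over 20 each (a limit set after seeing the values), of which 1 was a mixed cell and 2 had doublet scores above 0.25; the sums were 145 and 147 CPM without those cells. The 9 mural and smooth muscle genes summed to 1149 and 710.2 CPM in the lymphatic and 419 and 1059 in the blood gate. There too a few cells carried them: 2 and 3 cells held 94.9% and 93.5%, of which 3 had doublet scores above 0.25, and the sums were 63.0 and 48.8 CPM without those cells. Of 5 enteric glia genes, 4 were at 0, as were 7 of 10 epithelial genes and the B cell gene Ms4a1. The 8 T and innate lymphoid genes summed to 377 and 421 CPM, of which Thy1 gave 335 and 414, with Cd3d, Cd3e and Cd3g at 0. Plasma cell transcripts summed to 3664 and 3235 CPM in the lymphatic gate and 32961 and 19552 in the blood gate. In the other Ptprc 0 cells they summed to 239762 and 252329 CPM, and in barcodes with 100 or fewer UMIs to 182899 and 181076. Of these genes, 5 of 6 were lower in the lymphatic than in the blood gate.

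The bulk libraries gave a measure that the cell gate did not use, since those cells were sorted by CD31 and LYVE1 protein. They held 8549348 and 14838594 counts for lymphatic and 55382442 and 24664013 for blood endothelium. Of 14893 genes tested, 1239 (8.32%) were called higher in lymphatic endothelium and 2183 (14.7%) lower, and the median log2 fold change of all tested genes was -0.12. With 2 libraries a group the counts depend on each: 398 and 770 were called without lymphatic library 2, 777 and 1206 without lymphatic library 1, and 700.0 higher without blood library 2. In bulk samples, fewer cells of a type and less RNA per cell cannot be told apart. Levels are CPM scaled by TMM and are not scaled for gene length.

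The sorted antigen Lyve1 had 1919 and 3415 CPM in the lymphatic and 6.74 and 44.5 in the blood libraries (log2 fold change 6.70 ± 1.02, adjusted p = 0.0032). Prox1 had 104 and 119 against 4.28 and 4.90 CPM (log2 fold change 4.60 ± 0.74, adjusted p = 0.0037). Mmrn1 had 1431 and 3362 against 5.13 and 19.5 CPM (log2 fold change 7.61 ± 1.27, adjusted p = 0.0043). All 3 were higher in both lymphatic libraries than in both blood libraries; Mmrn1 and Prox1 had chosen the lymphatic gate and Lyve1 had not. The endothelial genes of that gate went the other way. Cdh5 (VE-cadherin) was lower at 65.1 and 52.1 against 515 and 862 CPM (log2 fold change -3.56 ± 0.63, adjusted p = 0.0054). Pecam1, which encodes CD31, was lower in lymphatic endothelium at 123 and 198 against 802 and 909 CPM (log2 fold change -2.41 ± 0.62, adjusted p = 0.023). All 20 pan-endothelial genes were tested in bulk, of which 0 were higher, 12 lower and 8 did not pass (median log2 fold change -1.90). Of 16 Notch genes, 0 were higher and 9 lower, and of 27 basement membrane and matrix genes, 2 and 18. The pan-endothelial and Notch counts of lower genes fell when either lymphatic library was left out. Without lymphatic library 1 and 2, the median log2 fold change was -1.54 and -2.40 for pan-endothelial and -1.92 and -2.54 for Notch genes. Over all genes tested, 8.32% were higher and 14.7% lower. Of 18 tested identity genes, 12 were higher, 1 was lower (Itga1) and 5 did not pass (median log2 fold change 3.05); 8 were higher without lymphatic library 2. Reln had 337 and 403 against 5.58 and 20.7 CPM (log2 fold change 4.82 ± 0.79, adjusted p = 0.0041). Fgl2 had 875 and 1629 against 66.2 and 111 CPM (log2 fold change 3.82 ± 0.48, adjusted p = 0.0018). Tbx1 had 80.7 and 186 against 0.331 and 1.97 CPM (log2 fold change 6.92 ± 0.85, adjusted p = 0.0017). Flt4, called in single cells, had 167 and 258 against 68.3 and 93.5 CPM (log2 fold change 1.40 ± 0.68, adjusted p = 0.17), although both lymphatic libraries were above both blood libraries. Of 19 VEGF and angiopoietin genes tested in bulk, 0 were higher, 7 lower and 12 did not pass (median log2 fold change -1.15). Flt4, Nrp2, Pgf and Angpt2 were among the 12. Ccl21a was listed at 0 in all 8 libraries, as were its copies, and gives no bulk value.

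Of 42 secreted niche and guidance genes tested in bulk, 8 were higher in lymphatic endothelium, 13 lower and 21 did not pass (median log2 fold change -1.02); 7 were lower without lymphatic library 1 and 5 without lymphatic library 2. Of those called higher in single cells, 4 did not pass: Igfbp5 had a log2 fold change of 1.09 ± 0.54, Sema6a of -0.42 ± 0.45, Tgfb1 of -0.70 ± 0.52 and Tgfb2 of -0.63 ± 0.55 (adjusted p = 0.17, 0.53, 0.35 and 0.43). Among the 8 higher ones, Wnt2 had 118 and 248 against 0.189 and 10.4 CPM (log2 fold change 5.13 ± 1.31, adjusted p = 0.022), a call lost without lymphatic library 1 (adjusted p = 0.051) or 2 (adjusted p = 0.11). Rspo3 had 107 and 159 against 3.24 and 8.0 CPM (log2 fold change 4.57 ± 0.50, adjusted p = 0.0013). Ntn1 had 64.0 and 89.4 against 6.83 and 7.58 CPM (log2 fold change 3.41 ± 0.35, adjusted p = 0.0013). These 3 genes were higher in each lymphatic library. Il7, of the trafficking list, had 101 and 171 against 1.56 and 1.51 CPM (log2 fold change 6.46 ± 0.47, adjusted p = 6.0e-04). Tgfb3 had 39.8 and 101 against 1.02 and 2.89 CPM (log2 fold change 5.20 ± 0.66, adjusted p = 0.0018). Sema3a had 15.8 and 31.2 against 0.189 and 0.587 CPM (log2 fold change 5.97 ± 0.91, adjusted p = 0.0032). For these 3 as well, both lymphatic libraries lay above both blood libraries. In the telocyte libraries Rspo3 had 21.0 and 29.3 CPM and Il7 1.50 and 2.54; in the PDGFRAlo libraries Rspo3 had 67.6 and 80.3 CPM and Il7 5.42 and 7.62.

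Of the 1173 genes called higher in the lymphatic gate, 1150 were tested in bulk and 282 (24.5%) were called higher there, which is 39.1% of the 721 bulk calls among genes tested in both. Of the 1366 called lower, 1321 were tested in bulk and 639 (48.4%) were called lower, 36.6% of 1747 bulk calls. Over the 9096 genes tested in both, 7.93% were higher in bulk and 19.2% lower. Calls in opposite directions were made for 149 genes. Kdr was one of them: in bulk it had 152 and 209.9 against 986 and 1134 CPM (log2 fold change -2.55 ± 0.59, adjusted p = 0.015), a call lost without lymphatic library 1 (adjusted p = 0.092) or 2 (adjusted p = 0.076).

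Transcripts of some immune cells were higher in the lymphatic sort. The plasma cell genes summed to 171806 and 66746 CPM in the lymphatic and 5063 and 5137 in the blood libraries, and 4 of 4 tested were higher. All 5 B cell genes were higher, with sums of 3020.1 and 989 against 278 and 95.2 CPM, but 1 and 2 of 5 without lymphatic library 1 and 2, and 3 and 0 without blood library 1 and 2. T and innate lymphoid genes summed to 711 and 127 against 472 and 309 CPM, and 0 of 7 tested were called. Macrophage and dendritic genes, of which 4 were higher and 1 lower of 10, summed to 15986 and 19328 against 6696 and 4099 CPM; 1 or 2 were higher when any 1 of these 4 libraries was left out. Of 8 class II genes, 6 were higher in bulk (median log2 fold change 1.79), but 1 without lymphatic library 2, 2 without blood library 2 and 4 without blood library 1. Cd74 had 16674 and 21024 against 4930.1 and 5341 CPM (log2 fold change 1.88 ± 0.48, adjusted p = 0.023), a call lost without lymphatic library 2 (adjusted p = 0.078) or either blood library (adjusted p = 0.082 and 0.080). The part of such cells in the bulk differences was not tested; in the single-cell gate, by comparison, the class II sum was 528 and 537 CPM.

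**Figure D5:**
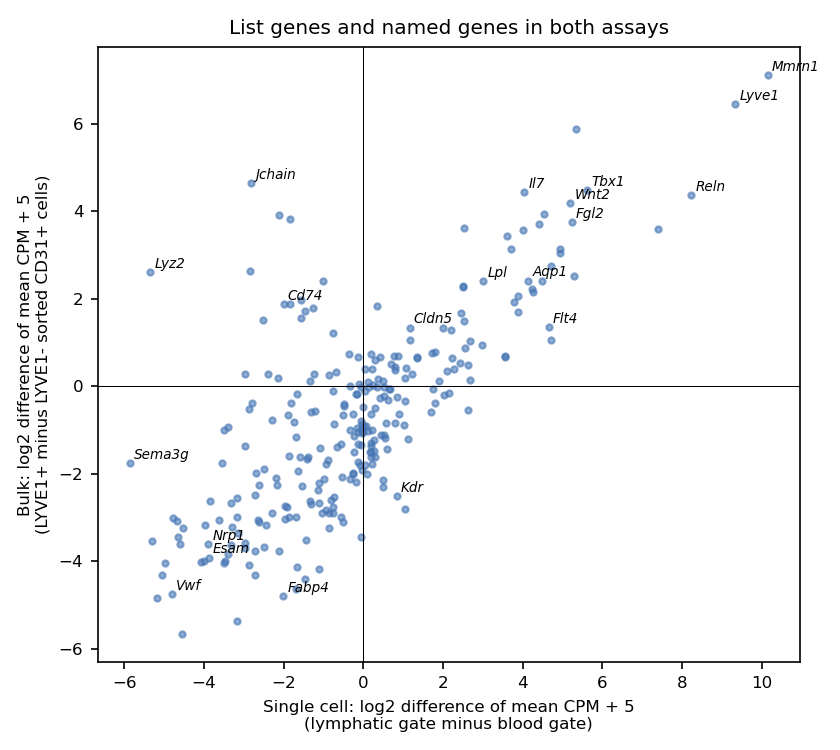
Each of 272 list genes and named genes, gate genes included, is placed by its log2 difference of mean CPM + 5 between lymphatic and blood cells in single cells (x) and in bulk (y). There are 71 points above 0 on both axes and 129 below 0 on both; Jchain, Lyz2 and Cd74 are above 0 in bulk only, and Kdr above 0 in single cells only.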

How the data were processed

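The deposited single-cell files hold whole-number UMI counts per gene and barcode, made by the authors with Cell Ranger 3.0.2 (whole mesenchyme) and 2.1.1 (sorted cells) on mm10, per the submitters' processing notes. The deposited bulk table holds raw read counts per gene symbol, with STAR and mm10 named in the same notes; the counter is not given in the sources used here. Of its 24969 gene names, 26 had been turned into dates and were left out (0.131% to 0.523% of counts). Per the labels, bulk libraries came from 5 to 10 ng of RNA with SMART-Seq v4, and single cells from the 10x 3′ kit.

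Cells needed at least 500 genes and a mitochondrial share below 10%, which kept 6226 of 6886 and 6040 of 6676 barcodes. Counts were summed for each class and library (3 classes, 2 libraries). Lymphatic sums held 462073 and 456193 UMIs, blood sums 838445 and 918587, other sums 20357639 and 18839585. Genes passing filterByExpr, without the 8 gate genes, were fitted in edgeR 4.0.16 (R 4.3.3; TMM, quasi-likelihood F-test, library as block; Benjamini-Hochberg). The 8 bulk libraries were fitted with 4 group means. Both fits were tried on simulated counts that had the same fixed spread for each. That spread was smaller than the spread of the bulk data, so the trial does not cover the bulk fit at its own spread. The common biological coefficient of variation was 0.0796 for the single-cell sums and 0.381 for bulk, so a difference had to be larger in bulk to be called. Ratios against 1 to 3 UMIs have exact 95% intervals; a class at 0 was given a floor of 3 UMIs. These intervals and floors cover counting error only.

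Alternatives were DESeq2 1.42.0, its size factors, no filter, the block, a stricter gate, cells thinned to 1500 UMIs, doublets removed, and each library left out. Scrublet (scanpy 1.11.5) marked only 6 cells in library 1 and 97 in library 2 at its own threshold, so a score of 0.25 was set after seeing this; it marked 98 and 113 cells, 3 and 2 of them in the lymphatic gate. No doublets were removed from the values reported. Named genes were the 12 largest rises and 12 largest falls with 50 CPM or more and no overlap, the 10 most abundant genes higher than in both classes, and list members at 20 CPM or more. The members and the lists were chosen with earlier results of these data known. Gene positions are from GENCODE M21 (GRCm38) and promoters from RefSeq (GRCm38.p6), where 17 of 20 genes (the identity list and Aqp1) matched.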

Additional observations from a re-analysis of the deposited data

How the results depend on the processing

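With each cell thinned to 1500 UMIs, 619 genes were higher and 717 lower against the blood gate, and 1029 and 1081 against the other cells, of 4782 tested, so fewer genes entered the fit. DESeq2 called 1953 genes higher in bulk. Leaving out 1 bulk library gave 398 to 1010 genes higher and 770 to 1954 lower; the lowest counts were without lymphatic library 2. With the blood gate limited to cells without Ptprc, the log2 fold change turned to 1.37 for H2-Aa, 1.01 for H2-Ab1, 2.06 for H2-Eb1 and 0.84 for Cd74. Against the full blood gate, that of H2-Eb1 was 0.0027 without library 1 and -2.98 without library 2. Over the genes named, 2366 values kept their direction and, where a test was made, their side of the threshold. Values with 1 single-cell library left out had no test, so for them only the direction was compared. Of the rest, 62 lost the call, 15 gained it, 6 moved without a call and 5 reversed. The cause was not tested beyond the cells left out.

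Without the replicate block, 1261 genes were higher and 1436 lower against the blood gate, and 2203 and 2223 against the other cells. In bulk the libraries share only a number (correlation of same-numbered deviations 0.195 in 2 pairs); with the replicate block 1193 genes were higher and 2145 lower, and Aqp1 missed the threshold. The planned comparison of gate cells with and without a Lyve1 UMI could not be fitted, because 5 of 153 cells had none, 4 of them the mixed cells. Genes near 20 CPM rest on about 10 UMIs a library, which limits what could be called.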

Other observations

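Prox1 UMIs were not confined to the lymphatic gate. Among cells with the blood pattern (2 or more UMIs of Cdh5 and Pecam1, 2 or more of Plvap and Flt1, none of Mmrn1 and Lyve1), those with 5 or more Selp UMIs held a Prox1 UMI in 9 of 26 cells in library 1 (34.6%, exact 95% interval 17.2% to 55.7%) and 5 of 32 in library 2 (15.6%, 5.28% to 32.8%). Cells of that pattern with 0 to 4 Selp UMIs held one in 10 of 135 (7.41%) and 6 of 131 (4.58%). Depth differed between these cells, with medians of 7550 and 7819 UMIs against 4751 and 4476. Summed Prox1 was 44.7 and 39.2 CPM against 12.7 and 9.78. The 4 mixed cells of the lymphatic gate met the blood pattern and are counted in it. Among cells with 5 or more Selp UMIs, 1 mixed cell held 2 of the 10 Prox1 UMIs in library 1. In library 2, 2 mixed cells held 5 and 3 of the 11. Other Ptprc 0 cells held a Prox1 UMI in 1.08% and 0.767% of cells (26 and 17 cells), with median depths of 6909 and 6899 UMIs. A cell of the blood pattern with 1 Prox1 UMI and no Ptprc UMI falls in this class, so it is not a separate background. Of the 26 and 17 cells, 15 and 8 had 1 Prox1 UMI and met the other 2 conditions of the lymphatic gate. A further 3 and 3 lacked only a Cdh5 or Pecam1 UMI. The lymphatic gate cells with under 2 Plvap and Flt1 UMIs had 979 and 793 CPM of Prox1. The split at 5 Selp UMIs was made after seeing the data, and no test was made between these cells.

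Il22, an interleukin of innate lymphoid and T cells, had 74 UMIs in 10 gate cells, of which 1 cell held 64; that cell had a doublet score of 0.331, above the 0.25 set for predicted doublets.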
